A study of Mus musculus with 31 samples.

Results

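Mouse embryonic stem cells that had lost Dicer1 were compared with wild-type (WT) cells in the preexisting fraction of their RNA, the molecules made before a short labelling pulse. The comparison used the 8 libraries that the sample characteristics call preexisting, of 31 in the study: 4 from Dicer-depleted cells and 4 from WT cells. Both came from the DTCM23/49 XY line, whose Dicer1 gene is conditional and which was grown on gelatin in serum with LIF; the labels do not say whether the line is 1 clone. Depleted cells had been cultured with 800 nM 4-hydroxytamoxifen (4-OHT), and the labels give 8 days of treatment for depleted and WT cells alike, without saying what the WT cells received. All cultures took up 200 uM 4-thiouridine (4sU) for 10 or 15 minutes before RNA was extracted, so each genotype had 2 cultures with a library at each labelling time. Only exonic signal was used, summed per gene and given as TPM, a transcript abundance scaled for length and library total.

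Dicer is the ribonuclease that cuts hairpin precursors into mature microRNAs. An Argonaute protein holds the microRNA, whose seed, bases 2 to 8, pairs with sites mostly in the 3′ UTR of mRNAs; TNRC6 proteins then recruit the deadenylation and decay machinery. In mouse embryonic stem cells most microRNAs come from a few clusters, the miR-290 cluster foremost, and Dicer-deficient stem cells are known to survive and to divide more slowly. Because 4sU enters only RNA made during the pulse, the preexisting fraction holds the older pool, on which decay acts, and the labelled fraction is close to synthesis.

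The targeted gene came first. Dicer1 (chromosome 12, bases 104687742 to 104751952, mm10) had 1.2, 3.23, 3.37 and 2.95 TPM in depleted cells, against 13.4, 17.6, 17.9 and 17.2 TPM in WT cells, where values run from culture 1 at 10 and 15 minutes to culture 2 at 10 and 15 minutes. The genotypes did not overlap, and the level averaged 2.69 ± 0.671 TPM in depleted cells and 16.5 ± 1.42 TPM in WT cells (SD, n = 2 cultures each). The log2 change of TPM + 1, depleted minus WT, was -2.29 ± 0.25 (SE; limma adjusted p = 0.0347), so some Dicer1 RNA was left; whether it carried the deleted part cannot be told apart in sums per gene.

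The cells expressed stem cell markers in both genotypes. All 12 markers fixed for embryonic stem cells passed the filter on low values, none passed the test, and their summed level was 1675 to 1817 TPM in depleted and 1844 to 1976 TPM in WT libraries. In bulk RNA, fewer cells of a type and less RNA per cell cannot be told apart. Pou5f1, the core pluripotency factor OCT4, had a median of 113.6 TPM over 4 depleted libraries and 107.8 TPM over 4 WT libraries, and Nanog, another core factor, 363 TPM in depleted and 255 TPM in WT libraries. Tdgf1, another of the 12, went the other way, with 559 to 666 TPM in depleted and 723 to 1075 TPM in WT libraries. Changes were positive for 6 of the 12 markers, beside 53.2% of all genes. Pou5f1, Nanog and Tdgf1 were named after their values were seen. Of 8 fibroblast feeder markers only Fbln1 passed the filter, with Col3a1 and Lum at 0 in all 8 libraries and a summed level of 2.88 to 5.81 TPM in depleted and 3.14 to 6.76 TPM in WT libraries. Primitive endoderm markers summed to 3.48 to 19.2 TPM in depleted and 3.46 to 8.72 TPM in WT libraries with Foxa2 at 0 throughout, and mesoderm markers to at most 0.612 TPM in depleted and 0.462 TPM in WT libraries. Trophoblast markers summed to 15.7 to 22.6 TPM in depleted and 7.69 to 15.6 TPM in WT libraries, most of it Tead4, which stem cells also use, and neural markers to 28.8 to 57.0 TPM in depleted and 26.5 to 31.8 TPM in WT libraries, mostly Tubb3 and Pax6. The 6 two-cell-like markers found summed to at most 0.753 TPM in depleted and 0.986 TPM in WT libraries. The part of these other cell types in the results was not tested.

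One library stood apart. The depleted culture 1 library of 10 minutes had a Pearson r of 0.895 to 0.925 with the other 7 over log2(TPM + 1) of 21821 genes, while the 21 pairs among those 7 had 0.919 to 0.976. It listed 7.09% of the tested genes at 0, against 2.93 to 6.38% in the others. The median gene differed between 15 and 10 minutes by 0.46 in depleted culture 1 on the log2 scale, by 0.29 to 0.34 in the other 3 cultures, and by 0.35 to 0.37 between depleted and WT cultures of the same number. The depth of these libraries is unknown, so no counting error can be given.

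At a Benjamini-Hochberg adjusted p under 0.05, 141 of 21821 genes or unmatched entries differed (0.646%): 109 were higher in depleted cells, which is 0.5% of those tested, and 32 were lower, which is 0.147%. Of the genes higher in depleted cells, 92 were protein-coding (0.816% of 11279 coding genes tested), and of those lower 27 (0.239%). At an unadjusted p under 0.05, limma gave 2065 genes higher (9.46%) and 1821 lower (8.35%). Depleted and WT libraries did not overlap for 107 of the 109 and for 20 of the 32, beside 7.03% of all genes with every depleted library above every WT library and 2.87% with every one below. With 2 cultures a genotype an exact permutation test cannot go below p = 0.333, so calls rest on a spread shared across genes and with the labelled fraction. Adjusted p-values lay between 0.0193 and 0.0485 for the genes that rose and between 0.0347 and 0.0477 for those that fell. With each culture centred on its median the split was 39 higher and 23 lower.

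The calls leaned on the library that stood apart. It held the lowest of the 8 values for 27 of the 32 genes that fell and the highest for 44 of the 109 that rose. With depleted culture 1 taken from its 15 minute library alone, 6 genes were higher and 3 lower, and 4 of the 141 kept their call: 9530068E07Rik, Spats2l and Fndc3b, all higher, and Dicer1. All 141 kept their sign there, which the choice of genes with a strong change favours. Leaving out any whole culture left 0 calls by limma, with 1239 to 2046 genes higher and 896 to 1723 lower at an unadjusted p under 0.05.

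The coding gene with the largest rise that met the conditions for naming (adjusted p under 0.05, at least 5 TPM in the higher genotype, no overlap, outside the chromosome 9 repeat) was 9530068E07Rik (chromosome 11, bases 52396428 to 52408728), a gene named only by its RIKEN clone. It had 108, 119, 156 and 138 TPM in depleted cells, against 16.5, 21, 12.8 and 19.8 TPM in WT cells. Every depleted library was at least 5 times as high as any WT library. The log2 change was 2.84 ± 0.21 (SE; limma adjusted p = 0.0193), the smallest adjusted p of all genes.

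Among the 18 largest rises, Dpp4, Cd55b, Itgb4 and Plet1 encode proteins of the cell surface. Dpp4, a protease on the cell surface, had 21.7, 14.9, 31.9 and 26 TPM in depleted cells, against 2.89, 4.18, 4.31 and 2.16 TPM in WT cells (log2 change 2.47 ± 0.28). Cd55b, a copy of the complement inhibitor Cd55, had 86.5, 42, 51.7 and 93 TPM in depleted cells, against 14.2, 13.5, 16 and 17.1 TPM in WT cells. Cd55 itself, named after its values were seen, had 51.7, 30.9, 38.4 and 61.4 TPM in depleted cells, against 11.9, 11.4, 10.2 and 13.4 TPM in WT cells; these related genes are neighbours on chromosome 1, and reads from sequence they share, which was not measured, may have been split between them. Itgb4, the integrin chain that holds epithelial cells to laminin, had 8.27 to 21.2 TPM in depleted cells and 1.21 to 3.56 TPM in WT cells. Plet1, a surface protein of early placenta and epithelia, had 14.6 to 18.6 TPM in depleted cells and 1.37 to 4.84 TPM in WT cells. All 4 depleted libraries exceeded all 4 WT libraries for each of these genes.

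Anxa1, Irak2, Cgas and Elf4 were others of the 18. Anxa1, annexin A1, a phospholipid-binding protein, had 32, 7.51, 14.9 and 13.5 TPM in depleted cells, against 2.09, 1.91, 3.65 and 0.462 TPM in WT cells; its highest value came from the library that stood apart, yet the other 3 depleted libraries were also above WT. Irak2, a kinase of interleukin-1 and Toll-like receptor signalling, had 47.1, 28.6, 24.1 and 24.6 TPM in depleted cells, against 8.26, 7.24, 3.12 and 4.74 TPM in WT cells. Cgas, the sensor of cytosolic DNA, had 3.42 to 11.3 TPM in depleted cells and 0.799 to 1.42 TPM in WT cells. Elf4, an ETS transcription factor, had 7.28, 10.1, 13.8 and 11 TPM in depleted cells, against 2.83, 1.82, 0.808 and 1.31 TPM in WT cells. Further rises were Spats2l (log2 change 2.53 ± 0.23), the EGF-repeat membrane protein Megf11 (2.24 ± 0.24), the tubulin polyglutamylase Ttll6 (1.99 ± 0.23), the protease-like Prss35 (1.96 ± 0.31), Fndc3b (1.94 ± 0.21) and Mbd2, which binds methylated DNA (1.88 ± 0.28).

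The 3 most abundant genes among the rises outside the repeat were Mme, Sparc and Tcf7l2. Mme, the membrane peptidase neprilysin, had 1033, 615, 718 and 737 TPM in depleted cells, against 265, 293, 293 and 197 TPM in WT cells. Sparc, a secreted matrix glycoprotein, had 783, 804, 616 and 877 TPM in depleted cells, against 346, 479, 386 and 369 TPM in WT cells; its log2 change of 0.96 ± 0.15 was the smallest among the calls. Tcf7l2, a transcription factor at the end of Wnt signalling, had 332, 280.1, 236 and 266 TPM in depleted cells, against 82.2, 121, 98.1 and 77.9 TPM in WT cells (log2 change 1.56 ± 0.18). In all 3 the lowest depleted library lay well above the highest WT library.

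**Figure D1:**
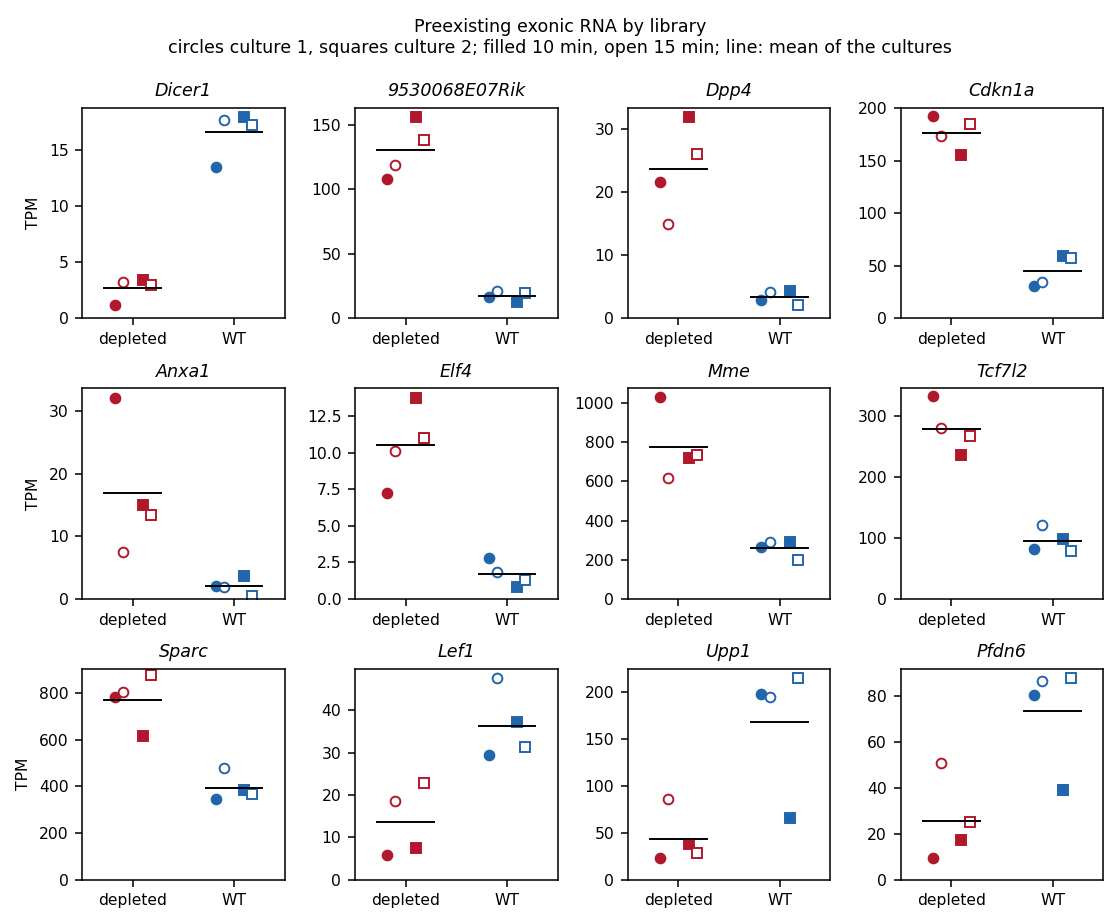
TPM of 12 named genes in each preexisting library, depleted left of WT, with circles for culture 1, squares for culture 2, filled marks for 10 minutes, open marks for 15 minutes and a line at the mean of the 2 cultures. For 9530068E07Rik the depleted libraries lie between 108 and 156 TPM and the WT libraries between 12.8 and 21 TPM, while for Upp1 and Pfdn6 a WT library of 10 minutes falls within the depleted range.

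Only 13 coding genes met the same conditions among the falls, Dicer1 first. Usb1, an exonuclease that trims U6 small nuclear RNA, had 0, 1.47, 0.324 and 1.36 TPM in depleted cells, against 6.31, 7.05, 7.13 and 6.32 TPM in WT cells (log2 change -2.21 ± 0.22). Grhpr, glyoxylate and hydroxypyruvate reductase, had 0, 4.01, 0.584 and 0.978 TPM in depleted cells, against 5.34, 6.19, 11.7 and 6.12 TPM in WT cells. Hdhd2 had 0.079, 7.47, 2.58 and 0.482 TPM in depleted cells, against 9.05, 8.43, 8.56 and 10.1 TPM in WT cells. In each of these the depleted library of culture 1 at 10 minutes was at or near 0, and its 15 minute partner was higher. Ints11, the endonuclease of the Integrator complex, had 2.68, 18.4, 12.6 and 5.52 TPM in depleted cells, against 25.7, 23, 19.2 and 24.9 TPM in WT cells, and Miip 1.01, 12, 6.29 and 3.61 TPM in depleted cells, against 13.1, 15.7, 24.2 and 17.3 TPM in WT cells, again with a wide gap between the libraries of depleted culture 1.

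Lef1, a transcription factor of the same family as Tcf7l2, moved the other way from it. It had 5.75, 18.6, 7.41 and 22.9 TPM in depleted cells, against 29.3, 47.7, 37.2 and 31.3 TPM in WT cells, with no overlap, and a log2 change of -1.52 ± 0.24 (SE; limma adjusted p = 0.0461). Other falls were Fopnl (-1.56 ± 0.23), Telo2 of a complex that matures large kinases (-1.51 ± 0.25), Gtsf1l (-1.49 ± 0.23), the spindle augmin subunit Haus7 (-1.39 ± 0.21) and the respiratory complex I subunit Ndufb6 (-1.18 ± 0.19).

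The 3 most abundant genes that fell had libraries that overlapped. Upp1, uridine phosphorylase, had 22.7, 86, 38.4 and 28.4 TPM in depleted cells, against 198, 195, 65.9 and 215 TPM in WT cells, a log2 change of -1.97 ± 0.26. Pfdn6, a prefoldin subunit, had 9.56, 50.7, 17 and 25 TPM in depleted cells, against 80.5, 86.4, 38.8 and 87.7 TPM in WT cells. Mrpl18, a mitochondrial ribosomal protein, had 25.3, 70.4, 29.2 and 58.5 TPM in depleted cells, against 100.97, 95.9, 132 and 66.1 TPM in WT cells. The WT library that reached into the depleted range was culture 2 at 10 minutes for Upp1 and Pfdn6 and culture 2 at 15 minutes for Mrpl18.

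Genes reported as targets of the miR-290 family held 3 that rose. Of 11 listed, 9 were measured, Cdkn1a, Mbd2 and Ei24 rose, and none fell. The median log2 change was 1.11, beside 0.03 over all 21821 genes. Calls in this list and in those that follow stand beside 0.5% of all genes called higher and 0.147% called lower. Changes were positive for 9 of 9, beside 53.2% of all genes, and the list was chosen with earlier results of these data known. Cdkn1a, the cyclin-dependent kinase inhibitor p21, had 192, 173, 155 and 185 TPM in depleted cells, against 30.3, 34.6, 59.4 and 57.3 TPM in WT cells (log2 change 1.99 ± 0.30; limma adjusted p = 0.0426), and its libraries were all more than 2.5 times as high in depleted cells. Ei24, a membrane protein induced in p53 responses, had 163, 151, 186 and 138 TPM in depleted cells, against 67.3, 71.8, 72.5 and 80.4 TPM in WT cells, a log2 change of 1.11 ± 0.17. Mbd2 had 18.2, 14.3, 26.2 and 27.9 TPM in depleted cells, against 6.02, 5.72, 2.98 and 5.81 TPM in WT cells. Among members that did not pass, Casp2, a caspase, had 27.2 to 42.5 TPM in depleted cells and 12 to 20.2 TPM in WT cells (adjusted p = 0.0937), and Lats2, a Hippo kinase, 5.79 to 18.8 TPM in depleted cells and 1.92 to 4.01 TPM in WT cells (adjusted p = 0.105).

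Lists that overlap with it through Cdkn1a had smaller medians. Of 18 p53 target genes 15 were measured and 1, Cdkn1a, rose, with a median of 0.40; Perp, a p53 target of cell junctions, had 9.74 to 16.7 TPM in depleted cells and 3.72 to 5.60 TPM in WT cells without passing (adjusted p = 0.0879). Of 21 inhibitors and regulators of G1 and S phase 16 were measured, Cdkn1a alone rose, and the median was 0.35. At an unadjusted limma p under 0.05, 8 of these 16 were higher and 1 lower. For the 15 p53 targets the counts were 7 and 0, beside 9.46% of all genes higher and 8.35% lower. Ccnd2, cyclin D2, had 13.8 to 29.6 TPM in depleted cells and 7.54 to 9.53 TPM in WT cells (adjusted p = 0.0858), and Rb1, the retinoblastoma protein, 29 to 41 TPM in depleted cells and 10.2 to 20.3 TPM in WT cells (adjusted p = 0.11).

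No other gene of the silencing machinery passed the test. Of 13 genes listed 12 were measured and Dicer1 fell, with a median log2 change of 0.14. Named after their values were seen, the microprocessor pair Drosha and Dgcr8 had log2 changes of 0.09 ± 0.18 and 0.22 ± 0.19, and Ago2, the Argonaute that can cleave targets, 0.33 ± 0.27. The next by p were the silencing effectors Tnrc6a and Ago1. Tnrc6a had 23.8, 20.0, 26.4 and 23.3 TPM in depleted cells, against 6.90, 10.2, 12.4 and 8.96 TPM in WT cells (adjusted p = 0.0563), and Ago1 29.2 to 57.7 TPM in depleted cells and 9.04 to 19 TPM in WT cells (adjusted p = 0.083). In both, all depleted libraries lay above all WT libraries.

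Wnt signalling genes changed in both directions. Of 32 listed 22 were measured; Tcf7l2 and Fzd6, a receptor, rose, Lef1 fell, and the median was 0.21. Fzd6 had 7.89, 3.50, 8.61 and 4.03 TPM in depleted cells, against 1.53, 1.48, 1.01 and 2.36 TPM in WT cells. Sfrp1, a secreted Wnt antagonist, had 46.6 to 55.5 TPM in depleted cells and 14.8 to 26.4 TPM in WT cells without passing (adjusted p = 0.0858). None of 25 measured genes of the TGF-beta, BMP and Nodal pathway passed (median 0.41), nor any of 17 Hippo genes (median 0.62), 11 LIF and STAT3 genes (median 0.39) or 30 FGF and MAP kinase genes (median 0.09). Of these, Ccn1, a secreted target of the Hippo effectors, had 6.91 to 10.0 TPM in depleted cells and 0.984 to 4.05 TPM in WT cells (adjusted p = 0.0671), and Il6st, the shared LIF receptor chain gp130, 173 to 213 TPM in depleted cells and 60.3 to 116 TPM in WT cells (adjusted p = 0.0901). At an unadjusted limma p under 0.05, 9 of the 17 Hippo genes were higher and 1 lower. The counts were 4 and 0 for LIF and STAT3, 5 and 0 for TGF-beta, BMP and Nodal, and 2 and 1 for FGF and MAP kinase genes. Over all genes 9.46% were higher and 8.35% lower.

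Matrix and adhesion genes had 3 members that rose. Of 17 basement membrane and matrix genes measured, Nid1 and Sparc rose and the median was 0.27; Nid1, nidogen, which links laminin to collagen, had 63.1, 45.3, 54.2 and 57.4 TPM in depleted cells, against 13.9, 20.9, 12.8 and 13.1 TPM in WT cells (log2 change 1.81 ± 0.23). Of 15 integrins and cadherins measured, Itgav, the integrin chain alpha V, rose, with 35, 29.6, 25.6 and 42.3 TPM in depleted cells, against 11, 13.8, 11 and 15.4 TPM in WT cells, and 15 of 15 changes were positive, beside 53.2% of all genes, with a median of 0.33. Itgb4 was not on that list.

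Of the 12 listed genes of DNA methylation and the TET enzymes Mbd2 alone rose, and the median was 0.13. Dnmt3b, the de novo DNA methyltransferase of pluripotent cells, had 240.1, 233, 159 and 191 TPM in depleted cells, against 354, 462, 449 and 401 TPM in WT cells; the genotypes did not overlap, and the adjusted p was 0.0575. None of the 29 listed histone demethylases and methyltransferases passed (median 0.29). Plagl1, an imprinted growth regulator, had 28.4 to 87.8 TPM in depleted cells and 6.57 to 12.5 TPM in WT cells, without passing (adjusted p = 0.0826), and none of the 18 measured imprinted genes did.

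Metabolic and housekeeping lists had medians below 0. None of 18 glycolytic genes passed, and the median was -0.59. An unadjusted limma p under 0.05 was found for 10 of them, all lower, beside 8.35% of all genes lower. Pgk1, phosphoglycerate kinase, had 65.4, 85.5, 73 and 61.9 TPM in depleted cells, against 196, 149.9, 106 and 160.5 TPM in WT cells. Its limma adjusted p was 0.0689. Of 19 cholesterol synthesis genes Mvk, mevalonate kinase, fell, with 0 to 3.48 TPM in depleted cells and 2.30 to 7.33 TPM in WT cells and overlap, and the median was -0.18. Of 24 nucleotide genes Upp1 fell, of 23 chaperones and prefoldins Pfdn6 fell, and of 78 mitochondrial ribosomal proteins Mrpl18 fell, with medians of -0.19, -0.18 and -0.39. None of 37 proteasome subunits (median -0.36) and none of 19 serine, one-carbon and amino acid genes (median -0.44) passed. Over all alternatives the median was -0.79 to -0.32 for glycolysis, -0.40 to -0.06 for nucleotide genes and -0.56 to -0.19 for mitochondrial ribosomal proteins, and for cholesterol synthesis it was -0.40 to 0.03, positive without WT culture 2.

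Cytosolic ribosomal protein genes, whose mRNAs are short and abundant, had the lowest median of all lists, -0.69. None of 84 measured passed, and 63 had an unadjusted limma p under 0.05, all lower, beside 8.35% of all genes lower. Only 1 of the 84 had a positive change, beside 53.2% of all genes. Depleted libraries lay wholly below WT libraries for 2 of the 84, near the 2.87% of all genes. Their summed level was 27472 to 46520 TPM in depleted and 34809 to 76920 TPM in WT libraries, with the highest sum in WT culture 1 at 10 minutes. With both culture 1 averages taken from their 15 minute libraries the median was -0.28.

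**Figure D2:**
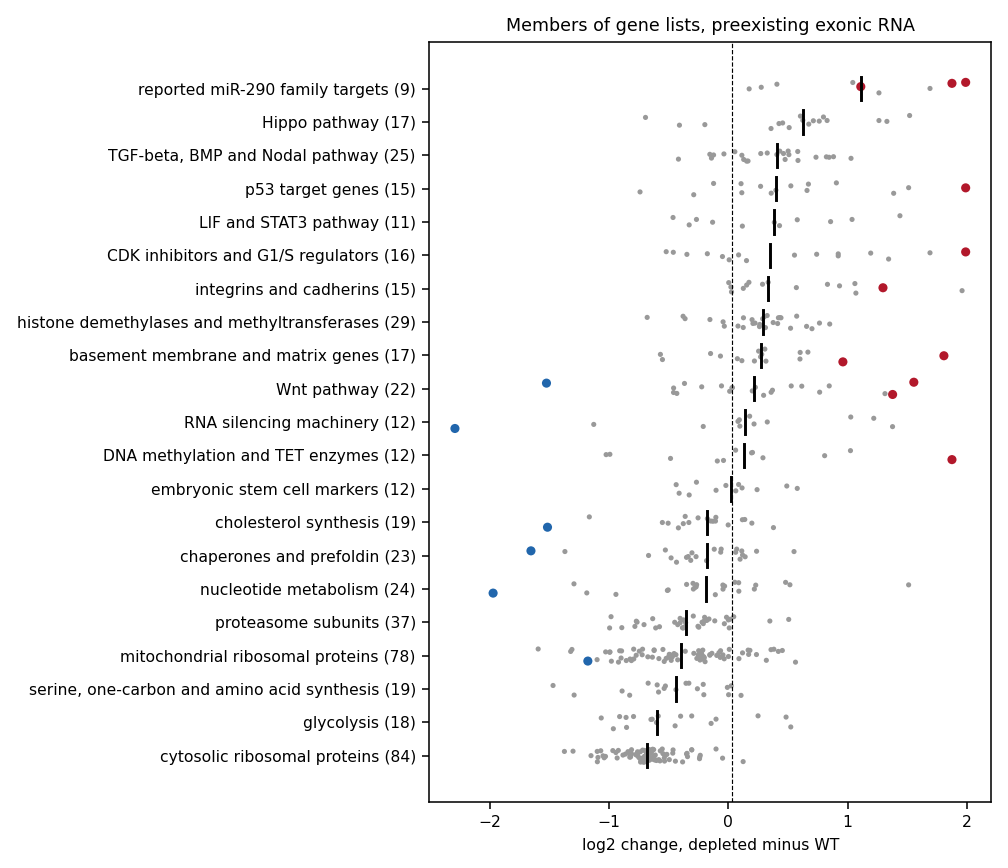
Log2 change, depleted minus WT, of each measured member of 21 gene lists, ordered by median (black bar), with the number measured in brackets. Large red and blue points passed the test, higher or lower in depleted cells, and the dashed line is the median of all genes, 0.03. The reported miR-290 family targets have the highest median, 1.11, and the cytosolic ribosomal proteins the lowest, -0.69.

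Counts in larger gene families are set beside the 0.5% of all genes called higher and the 0.147% called lower. Among 173 solute carriers Slc5a1, a sodium and glucose transporter, rose (3.17 to 8.76 TPM in depleted cells and 0.113 to 1.13 TPM in WT cells), and among 330 Zfp genes Zfp248 and Zfp827 rose. Zfp248 had 73.9, 4.82, 7.09 and 17.4 TPM in depleted cells, against 2.55, 3.72, 3.42 and 4.76 TPM in WT cells, and its highest value by far came from the library that stood apart. Among 48 ubiquitin-specific peptidases Usp46 rose (29.9 to 47.5 TPM in depleted cells and 8.58 to 17 TPM in WT cells). Among 132 Tmem genes Tmem64 rose (13.2 to 22.4 TPM in depleted cells and 3.33 to 5.24 TPM in WT cells) and Tmem256 fell (0 to 5.33 TPM in depleted cells and 4.51 to 20.3 TPM in WT cells). No gene passed among 61 replication-dependent histones, 42 RAB GTPases, 45 F-box genes, 39 tripartite motif genes, 28 kinesins or 22 protocadherins. These counts do not set the families apart from other genes.

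A tandem repeat at the start of chromosome 9 gave the largest changes of all. The lincRNA gene Gm26870 spans it (chromosome 9, bases 3000282 to 3038313, mm10), and 13 tested genes there or elsewhere share at least 25% of their 16-base words with it; 12 of the 13 rose. Their values summed to 1007, 861, 1719 and 1529 TPM in depleted libraries, against 248, 199, 142 and 95.8 TPM in WT libraries. Gm10718 (chromosome 9) had 65.6, 54.8, 110.4 and 99.7 TPM in depleted cells, against 13.8, 12.1, 8.65 and 5.06 TPM in WT cells (log2 change 2.96 ± 0.42), and Gm21738 (chromosome 14) 87.9, 72.1, 151 and 133 TPM in depleted cells, against 19.3, 16.3, 11.8 and 7.14 TPM in WT cells (log2 change 2.96 ± 0.41). Gm10800, which did not pass, had a log2 change of 1.38 (limma adjusted p = 0.164). The genes were compared in 16-base words with the Gm26870 span only, not with each other. Gm10801, Gm10800 and Gm21738 shared 58.7, 60.3 and 71.8% of their words with it. Reads may be split among the 13 genes, so they are treated as 1 signal and their number says nothing of how many loci rose. In the labelled fraction their log2 changes were 1.62 to 2.76.

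Among genes outside the coding class, 17 rose and 5 fell. Of 1068 long non-coding RNA genes tested 2 rose and 1 fell, and of 3376 pseudogenes 4 rose and 2 fell. Of 1649 other genes 1 rose and 2 fell, and of 4449 assembled transcripts with no match in the annotation 10 rose and none fell. Over all genes tested 0.5% rose and 0.147% fell, and the 17 include Gm26870 of the chromosome 9 repeat. By the naming rule the rises were Kat2b-ps, a pseudogene of the acetyltransferase Kat2b (23.9 to 28.4 TPM in depleted cells and 8.19 to 12.5 TPM in WT cells), Gm17132 (25.9 to 44 TPM in depleted cells and 10.1 to 16.2 TPM in WT cells) and Gm44126 (8.43 to 16.5 TPM in depleted cells and 4.29 to 4.93 TPM in WT cells), and the fall was Tmc4-ps (0.387 to 4.01 TPM in depleted cells and 4.02 to 9.01 TPM in WT cells). Kat2b itself, named after its values were seen, had 83.2 to 111 TPM in depleted cells and 31.7 to 49.8 TPM in WT cells, and reads may be split between it and its pseudogene. Pseudogenes as a class had a median log2 change of -0.19 and coding genes of 0.04.

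MicroRNAs of the miR-290 and miR-302 family share a seed, and the mature sequences of 2 of its members and of 1 member of the miR-17 family are shown to let the site searched for be read off them (RefSeq, GRCm38.p6; seed, bases 2 to 8, in capitals).
miR-295-3p: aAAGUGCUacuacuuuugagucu
miR-294-3p: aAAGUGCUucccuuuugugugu
miR-17-5p: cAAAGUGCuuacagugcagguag
In the small RNA libraries of the same study, miR-295-3p had 472 ± 126 RPM (reads scaled to the library total) at day 8 of 4-OHT and 20702 ± 2300 at day 0 (SD, n = 3 each), so 2.28% was left. For miR-294-3p 2.64% was left, for miR-17-5p 1.45% and for miR-92a-3p 2.97%. The abundant miR-182-5p kept 6.21% and miR-183-5p 14.7%, while miR-16-5p had 9.10 RPM at day 8 and 2.81 RPM at day 0, few reads on either day. MicroRNAs of muscle and heart, miR-206-3p and miR-208a-3p, had no read on either day.

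A 7-base match to the miR-290 and miR-302 seed, AGCACTT, was searched for on the sense strand of the 3′ UTR of each coding gene. The transcript used was the most abundant of those with an annotated and complete 3′ UTR. The site was found in 1497 of 11101 genes, 13.5%. It stood in 25 of the 81 genes that rose and have such a UTR, 30.9%, and in 2 of the 27 that fell, 7.41%. The median 3′ UTR was 1337 bases long in these 81, 481 in the 27 and 778 over all 11101 genes. The part of UTR length in these shares was not tested. Median log2 changes were 0.25 for the 243 genes with 2 or more sites, 0.18 for those with 1 and 0.01 for those with none. In labelled RNA the median was 0.13 for genes with a site and -0.01 for those without. The part of synthesis and of decay in these medians was not tested. The windows below, 15 bases before and 8 after the site, come from named genes that rose and show how the sites lie (mRNA strand, site in capitals).
9530068E07Rik: cagggactgtgtgtcAGCACTTgattttag
Elf4: aaggttgtgaggcaaAGCACTTatctctag
Cgas: agttcaatcgttaacAGCACTTattgctct
Tmem64: tgtgtgtttgctaacAGCACTTaggactta
Fndc3b: gacacacgagccgacAGCACTTtattctct
Ei24: tccagctgtttttttAGCACTTgccagctc
They lie at chr11:52408121-52408150 (plus strand), chrX:48413807-48413836 (minus), chr9:78431916-78431945 (minus), chr4:15284454-15284483 (plus), chr3:27416893-27416922 (minus) and chr9:36779881-36779910 (minus) of GRCm38. In Elf4, Cgas and Tmem64 the site is followed by A, which makes the 8-base form AGCACTTA found in 2.68% of genes. Elf4 had 5 sites and Cgas 3, while Cdkn1a, Sparc, Mme and Tcf7l2 had none in the transcript used. The UTRs searched were 3614 bases long in Elf4, 2399 in Cgas, 308 in Cdkn1a, 1085 in Sparc, 764 in Mme and 696 in Tcf7l2. Other transcripts of these genes were not searched, and some called genes had very short UTRs, with 7 bases in Phf21a and 10 in Elk4.

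Other seeds are set beside it. Genes with a miR-17 site, GCACTTT, which shares 6 bases with AGCACTT, had a median 0.25 above genes without, and genes with an AGCACTT site 0.18 above. In labelled RNA the medians were 0.17 with and -0.01 without a miR-17 site. The miR-17 site stood in 19 of the 81 genes that rose (23.5%) and in 11.4% of all, and the miR-200 site, CAGTATT, in 24 of the 81 (29.6%) and in 12.8% of all. The site of miR-203, CATTTCA, stood in 23 of the 81 (28.4%) and in 13.0% of all, and that of miR-206, ACATTCC, in 11 of the 81 (13.6%) and in 8.62% of all. For miR-206, which had no read, the difference was 0.10, and for miR-208a, also with no read, 0.15. For miR-203, at 10.3 RPM at day 0, it was 0.16, and for let-7a, with no read at day 0, 0.03. In these families reads were counted only for the member named, and not for others that share its seed, such as miR-1 for miR-206. Genes with a site have longer UTRs: the median was 2132 bases with and 653 bases without an AGCACTT site. Within the shortest, middle and longest of 3 bins of UTR length, the difference for AGCACTT was 0.13, 0.11 and 0.10, for miR-203 0.09, 0.04 and 0.07, for miR-208a -0.02, -0.01 and 0.08, for miR-17 0.20, 0.20 and 0.16, and for miR-206 0.07, 0.05 and 0.02. These are descriptions over genes, with no test.

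**Figure D3:**
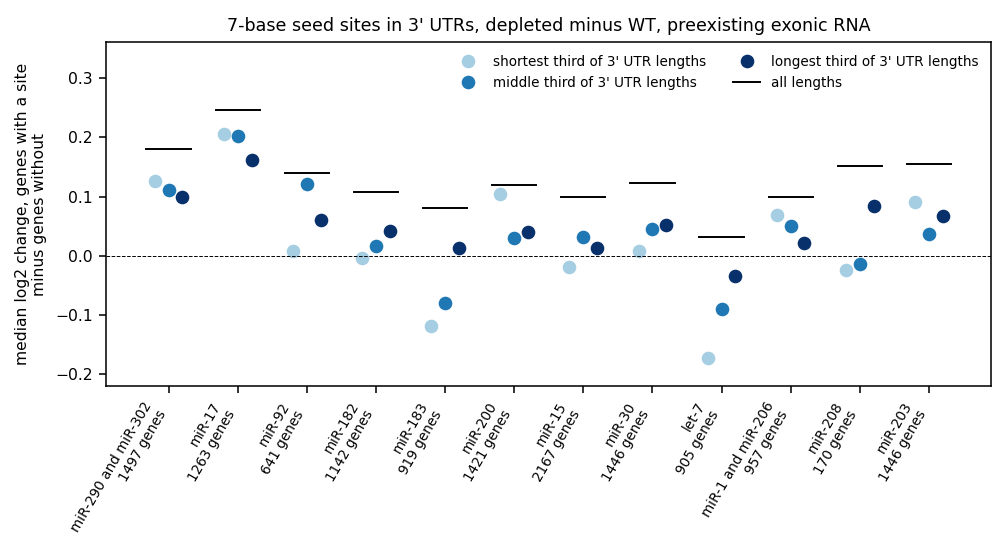
Median log2 change, depleted minus WT, of coding genes with a 7-base site in the 3′ UTR minus that of genes without, for 12 seed families, over all UTR lengths (black line) and within 3 bins of UTR length (points, light to dark from shortest to longest). The miR-17 and the miR-290 and miR-302 families lie above 0.09 in all 3 bins, and miR-203, miR-200, miR-206, miR-92 and miR-30 above 0 in all 3, while let-7 is below 0 in all 3.

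Changes moved with transcript length in the median. Genes that rose had a median transcript of 2524 bases and those that fell one of 1300 bases, against 2026 bases over the 11101 coding genes. Over 5 bins of equal size, from the shortest to the longest transcripts, the median log2 change was -0.28, -0.03, 0.05, 0.10 and 0.21, and in the labelled fraction -0.21, -0.03, 0.02, 0.07 and 0.13. The libraries did not split by genotype in this. The longest bin minus the shortest, as deviations from the mean of the 8 libraries, was 0.37, -0.03, 0.29 and 0.37 in depleted libraries, against -0.63, -0.24, 0.16 and -0.20 in WT libraries, so depleted culture 1 at 15 minutes and WT culture 2 at 10 minutes lay between the rest. By GC content the median change was 0.12 in the lowest of 5 bins and -0.11 in the highest. The part of length and GC in the calls, the site medians and the short ribosomal protein mRNAs was not tested.

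**Figure D4:**
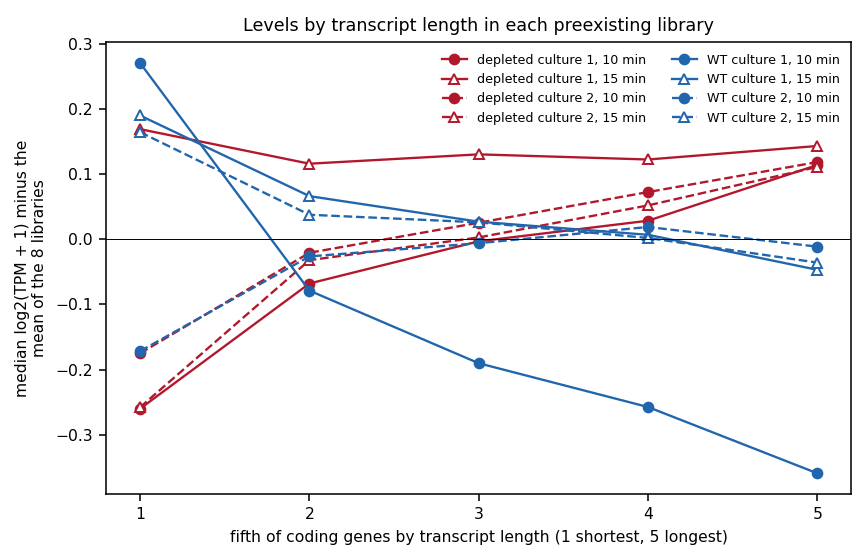
Median log2(TPM + 1) of coding genes in each preexisting library minus the mean of the 8 libraries, in 5 bins of transcript length from shortest to longest. Red lines are depleted and blue lines WT libraries, solid for culture 1 and dashed for culture 2, circles for 10 and triangles for 15 minutes. WT culture 1 at 10 minutes falls most with length, with 0.27 in the shortest bin and -0.36 in the longest.

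The labelled libraries of the same cultures allow the change in older RNA to be set beside that in new RNA. Over the 109 genes that rose the median log2 change was 1.64 in preexisting and 1.08 in labelled RNA, and over the 32 that fell -1.55 and -0.72; the preexisting values chose these genes. A test of the difference between fractions called 1 gene of 21821 (0.00458%), Gm47294, and limma gave 658 at an unadjusted p under 0.05. Cdkn1a changed by 1.99 in preexisting and 1.33 in labelled RNA, 9530068E07Rik by 2.84 and 1.75, and Dicer1 by -2.29 and -1.26. For Irak2 the values were 2.25 and 0.91, for Elf4 2.13 and 1.07, for Anxa1 2.51 and 2.42 and for Dpp4 2.47 and 2.36. None of these differences between fractions passed the test, which does not show that the fractions changed alike. Of 100 genes simulated with a log2 change of 1 in preexisting RNA alone, and of 100 with 2, that test recovered 0.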

How the data were processed

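Labelled and preexisting RNA of Dicer-depleted and WT cells was measured in 16 libraries of 4sU-treated cells, 8 of them preexisting. The deposited abundance signal had been made by the authors with STAR 2.5.0 and RSEM on mm10, tools taken from the submitters' processing notes; every column sums to the same total and 10 units equal 1 TPM, so values were divided by 10. Exonic entries were summed per gene, and each culture's value is the average of its 10 and 15 minute library. Genes averaging 1 TPM or more across all 16 were tested with limma 3.58.1 (R 4.3.3; trend, log2(TPM + 1), 4 group means, 4 residual degrees of freedom), two-sided, with Benjamini-Hochberg adjustment over 21821 genes at 0.05; folds on this scale understate low genes. limma's test gives every adjusted p in the text. The deposited microRNA read counts were made by the authors with cutadapt 1.8, Bowtie2 and HTSeq, per the submitters' processing notes. No read totals are known for the 4sU libraries. Nothing says that the cultures were grown separately, so p-values measure only the spread between them.

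On simulated data of this comparison over 21821 genes, 14 of 100 genes changed by a log2 of 1 were recovered. Of 100 changed by a log2 of 2, 72 were recovered, and there were 2 false calls. The test of the difference between fractions recovered 0 at either size, though the changes were placed in preexisting RNA alone. Each simulated gene varied independently with its own spread between cultures, and changes were placed only in genes above about 5 TPM. The simulation held no library that stood apart and no trend with length, so it does not measure the false calls in these data. Members and gene lists were chosen with earlier results of these data known. Named genes were Dicer1, list members past the threshold, the 2 others of a list with the smallest p, the 18 largest rises and up to 14 falls, up to 4 non-coding genes a direction and the 3 most abundant calls a direction. Some genes and a list that this rule names are not reported here. Alternatives were pseudocounts of 0.1 and 5 TPM, no filter, a filter at 5 TPM, the preexisting fraction alone, 2 other scalings, each labelling time alone, a replicate block, each culture left out and, chosen after seeing the data, culture 1 from its 15 minute library.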

Additional observations from a re-analysis of the deposited data

Results flagged for a closer look

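Gm47294, a gene annotated as a microRNA on chromosome 1 (bases 190482929 to 190483016), stood out because its genotype effect differed between RNA fractions. In preexisting RNA it was listed at 0 in all 4 depleted libraries, against 10.8, 0, 0 and 13.5 TPM in WT libraries. In labelled RNA it had 0, 31.1, 0 and 26.3 TPM in depleted libraries and was listed at 0 in all 4 WT libraries. The difference of the 2 log2 changes was -4.30 ± 0.31 (SE; limma adjusted p = 0.0175). In each group where it was seen, 2 of the 4 libraries were at 0. Each culture there paired a library at 0 with a library above 0. These were averaged before the test, so the SE leaves out the gap between them.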

How the results depend on the processing

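Counts of genes past the threshold (all, then higher, then lower, then differing between fractions; 141, 109, 32 and 1 as reported) moved with most choices. A pseudocount of 0.1 TPM gave 170, 120, 50 and 0, and 5 TPM gave 27, 23, 4 and 10. Without a filter they were 0, 0, 0 and 17 (limma; 2563 higher and 2236 lower at an unadjusted p under 0.05), and with a filter at 5 TPM 168, 127, 41 and 0. The preexisting fraction alone gave 0, 0 and 0 (1402 and 1007 unadjusted). Median centring gave 62, 39, 23 and 1, and scaling to coding genes other than ribosomal protein genes 16, 12, 4 and 1. The 10 minute libraries alone gave 1, 1, 0 and 18, and the 15 minute libraries alone 7, 2, 5 and 23. Leaving out each culture gave 0 to 0 for all 4 counts. Depleted culture 1 from its 15 minute library gave 9, 6, 3 and 2, WT culture 1 so treated 120, 94, 26 and 0, and both 2, 2, 0 and 0 (1750 and 712 unadjusted); these 3 were chosen after seeing the data. With a replicate block the counts were 267, 205, 62 and 0, and all 141 were among the 267; nothing in the labels says that a number marks a shared batch, and deviations of same-numbered cultures had an r of 0.22 in preexisting RNA. In these settings every one of the 141 that was tested kept its sign. The log2 change of Pcdhgb1, which was not past the threshold, turned to -0.071 with the 10 minute libraries alone. Of 46 list medians, 0 to 13 moved beyond the spread between cultures and 0 to 10 changed sign, by setting: 13 moved with the 10 minute libraries alone, and 10 changed sign without WT culture 1. The Wnt and silencing medians were -0.02 and -0.03 with the 15 minute libraries alone, and the FGF median was -0.09 without WT culture 1; those of the embryonic stem cell markers, solute carriers, Zfp, Tmem and tripartite motif genes changed sign with either scaling. Where a count changed, the cause was not tested, beyond the fewer cultures or genes that a setting uses. Depth is unknown, so no limit for low genes can be given.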

Other observations

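A group of 4 near-identical genes on chromosome X, Ott, Luzp4, Gm15127 and Gm15128, was lower in depleted cells for all 4 members, chosen after their values were seen. Their summed level was 0.086, 2.23, 0.886 and 0.843 TPM in depleted libraries, against 14.3, 10.1, 15.0 and 8.73 TPM in WT libraries, with no overlap. The median log2 change was -1.63 in preexisting RNA, and in labelled RNA the changes were -0.54 to -0.27. Reads may be split among the 4, so they count as 1 signal.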
